A study of Homo sapiens with 6 samples.

Results

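The spliceosome protein genes of the array were examined in cells with lowered SALL4. They were chosen by symbol (the PRPF, SF3A, SF3B, SNRP, SRSF, LSM2 to LSM8 and U2AF families and the helicases DHX8, DHX15, DHX16 and DHX38), which gave 58 of the 18404 genes with a named probe set. The set was also selected on the higher level of PRPF38A in the contrast described here, so the values of PRPF38A are a description and carry no test. The cells were SNU-398, an established human hepatocellular carcinoma line. Total RNA came from 3 cultures that carried a scrambled shRNA, a short hairpin RNA used as the control, and from 3 that carried an shRNA against SALL4, an embryonic zinc finger transcription factor. The labels call the 3 arrays of each group biological replicates and name no second hairpin and no rescue, so effects of lower SALL4 and any others of that hairpin cannot be told apart. With 3 arrays a group the precision is limited. The p-values rest on the spread between these cultures, with each gene's own spread drawn towards that of all tested genes.

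The spliceosome removes introns from pre-mRNA. It assembles anew on each intron from the U1, U2, U4, U5 and U6 small nuclear ribonucleoproteins (snRNPs), each a small RNA with a ring of Sm or LSM proteins and proteins of its own. U1 and U2 with the U2AF proteins mark the ends of the intron, the U4/U6.U5 tri-snRNP then joins to form the B complex, and DEAH-box helicases drive the later steps and the release of products. SR proteins bind exons and guide the choice of splice sites, and PRPF38A enters at the B complex, where it is needed for activation.

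SALL4 fell in the cultures with its hairpin. Its intensity was 283, 264 and 335 in the scrambled arrays and 121, 119 and 117 with the SALL4 shRNA, a log2 difference of -1.30 ± 0.18 (SE, limma, adjusted p = 0.0112). Adjusted p refers throughout to Benjamini-Hochberg adjustment over the 13711 genes that reached a mean log2 intensity of 5 (intensity 32) in at least 1 group. Among these, 220 genes (1.60%) passed an adjusted p of 0.05, and with no filter on dim genes 0 of 18404 (0%) passed. An unadjusted p under 0.05 was reached by 16.9% of the 13711 genes, and in 22.4% the 3 arrays of one group lay outside the range of the other. On the second principal component, 19.8% of the variance, scrambled replicate 3 (-19.3) and SALL4 shRNA replicate 2 (-23.4) stood apart from the other arrays. Hepatic markers were low in both groups: 4 of 9 measured ones stayed below an intensity of 32 on every array, with albumin at 10.1 to 12.8 and alpha-fetoprotein at 10.6 to 17.8, while glypican 3 lay between 119 and 165. The summed hepatic markers spanned 363 to 378 in the scrambled arrays and 332 to 362 with the SALL4 shRNA. Of the markers of other cell types, 4 of 5 for blood and 3 of 4 for endothelium stayed below 32 on every array, and PTPRC was listed at the floor of 10. The summed blood markers lay at 174 to 198 in the scrambled arrays and 180 to 274 with the SALL4 shRNA, and the endothelial ones at 84.9 to 92.6 and 80.5 to 106. Of the fibroblast and cholangiocyte markers, 0 of 6 and 0 of 4 stayed below 32 on every array. That limit lies below the array medians (47.85 to 51.69), so passing it does not show that a gene is expressed. KRT7 at 39.1 to 67.8 and PDGFRB at 38.4 to 72.9 lay around those medians. The fibroblast markers summed to 1286 to 1444 in the scrambled arrays and 1006 to 1368 with the SALL4 shRNA, with LUM between 466 and 813 over the 6 arrays. DCN, another of them, fell (195 ± 17.2 against 83.4 ± 21.1, SD, n = 3, limma adjusted p = 0.0218). The 6 fibroblast markers did not share a direction: 3 log2 differences were above 0 and 3 below, with a median of 0.12. The cholangiocyte markers summed to 1089 to 1328 and 1069 to 1254, with EPCAM between 803 and 1138. EPCAM had 2 probe sets, and whether the brighter one, used here, reads EPCAM alone was not tested. The part of these markers in the values of the spliceosome genes was not tested.

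PRPF38A lies on chromosome 1 head to head with ORC1, a subunit of the origin recognition complex, and the window before its start is printed because both genes share it. RefSeq (GRCh38.p14) places the start of PRPF38A at 52404602 on the plus strand and that of ORC1 at 52404423 on the minus strand, 179 bases apart. Of the 300 bases around each start in the RefSeq table, 278 are common to both genes. The window of the paralog PRPF38B is set beside it, and that of SNRNP40, the U5 snRNP gene with the lowest log2 difference among the splicing genes listed here. Each sequence runs 5′ to 3′ on the strand of its gene, from 250 bases before the start to 30 after it. Capitals mark CCGGAA (the core bound by ETS factors), GGGCGG (the GC box) and CCAAT on either strand.
PRPF38A (chr1:52404352-52404631, plus strand): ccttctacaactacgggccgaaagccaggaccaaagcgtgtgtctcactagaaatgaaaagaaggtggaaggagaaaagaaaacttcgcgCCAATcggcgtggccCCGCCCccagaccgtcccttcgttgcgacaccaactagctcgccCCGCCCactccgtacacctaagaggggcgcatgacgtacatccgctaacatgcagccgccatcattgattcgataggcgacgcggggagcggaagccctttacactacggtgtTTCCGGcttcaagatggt
PRPF38B (chr1:108692060-108692339, plus strand): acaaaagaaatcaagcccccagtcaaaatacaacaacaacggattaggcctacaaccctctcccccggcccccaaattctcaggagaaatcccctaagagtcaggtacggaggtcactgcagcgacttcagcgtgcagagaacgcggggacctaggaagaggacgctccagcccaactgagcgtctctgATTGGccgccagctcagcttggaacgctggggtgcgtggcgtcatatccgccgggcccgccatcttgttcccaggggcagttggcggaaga
SNRNP40 (chr1:31296759-31297038, minus strand): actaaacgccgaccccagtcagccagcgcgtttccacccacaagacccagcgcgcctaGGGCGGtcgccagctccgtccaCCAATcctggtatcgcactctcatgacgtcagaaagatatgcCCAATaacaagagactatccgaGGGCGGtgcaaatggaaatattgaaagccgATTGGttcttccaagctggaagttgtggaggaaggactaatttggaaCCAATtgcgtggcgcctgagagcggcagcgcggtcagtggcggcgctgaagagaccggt
Counted from the start as position 1, the PRPF38A window holds CCAAT at -160, GGGCGG on the other strand at -145 and -101, and CCGGAA on the other strand at 13. The PRPF38B window holds 1 of these words, CCAAT on the other strand at -61. In the SNRNP40 window, GGGCGG occurs 2 times and CCAAT 4 times, the nearest at -29. These are matches of letters in a window and do not show that a factor binds.

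PRPF38A was the spliceosome gene with the highest log2 difference, and it was the 6th of all 13711 genes in that order. Its intensity was 222, 214 and 231 in the scrambled arrays and 555, 924 and 484 with the SALL4 shRNA, means of 222 ± 8.51 and 654 ± 236.5 (SD, n = 3). Every array with the SALL4 shRNA lay above every scrambled array, with replicate 2 the highest. The log2 difference was 1.50 ± 0.24 (SE), a factor of 2.83, and it lay between 1.22 (without SALL4 shRNA replicate 2) and 1.69 (without replicate 3) when 1 array was left out. The next spliceosome gene in this order, SRSF7, was at 0.68.

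The neighbours and the paralog of PRPF38A showed other values. ORC1, on the other side of the shared window, had intensities of 150, 172 and 219 with the scrambled shRNA and 137, 102 and 133 with the SALL4 shRNA. The groups did not overlap and ORC1 was the lower with the SALL4 shRNA, at a log2 difference of -0.54 ± 0.21, which did not pass (adjusted p = 0.221) and was -0.25 without scrambled replicate 3 and SALL4 shRNA replicate 2 together. The nearest measured gene on the other side is TUT4, a uridylyl transferase of small RNAs, at -0.02 ± 0.19 (adjusted p = 0.979). PRPF38B, which shares the Prp38 domain, read 461, 442 and 619 in the scrambled arrays and 606, 581 and 499 with the SALL4 shRNA. These ranges overlapped, and the log2 difference was 0.16 ± 0.20 with a 95% interval from -0.28 to 0.59 (adjusted p = 0.739).

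**Figure D1:**
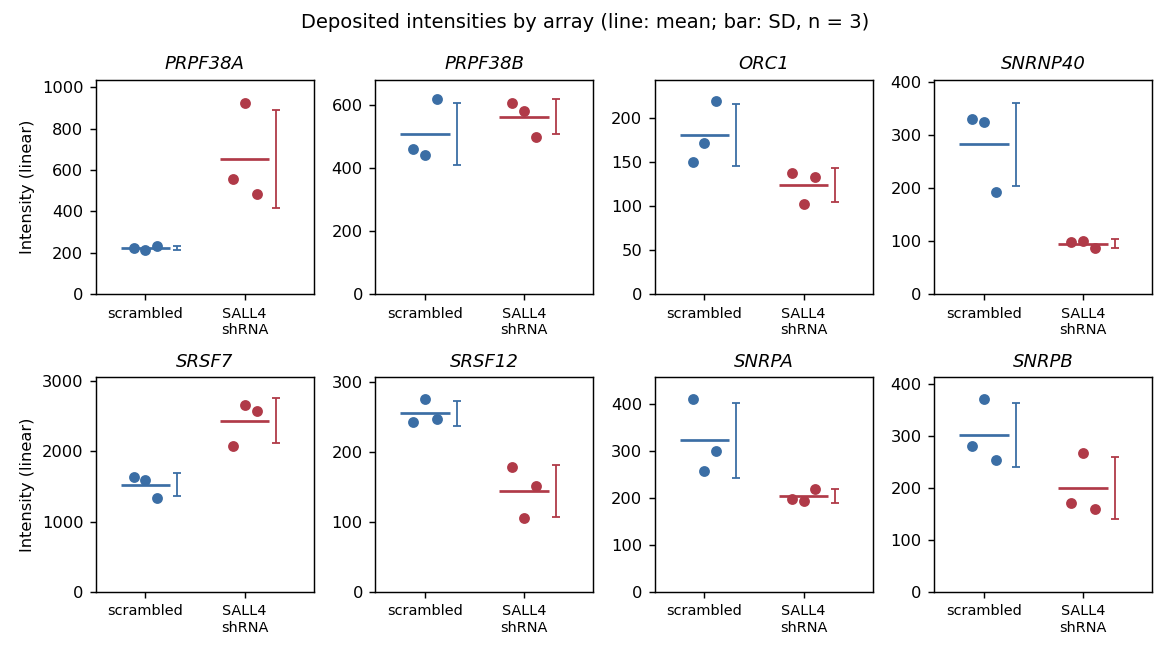
Deposited intensity on a linear scale (y axis, from 0) of 8 genes in the scrambled and SALL4 shRNA arrays; each point is 1 array, the line is the mean and the bar the SD (n = 3). PRPF38A lies between 484 and 924 with the SALL4 shRNA against 214 to 231 in the scrambled arrays, whereas the points of PRPF38B overlap between groups and those of ORC1 and SNRNP40 lie lower with the SALL4 shRNA.

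The spliceosome genes besides PRPF38A did not pass the test. Of the 58, 56 passed the filter on dim genes, and of the 55 besides PRPF38A 0 passed the adjusted limma test, against the 1.60% of all genes. An unadjusted p under 0.05 was reached by 6 of the 55 (DHX8, SRSF7 and PRPF39 higher, SRSF12, SNRPA and SNRPB lower), against 16.9% of all genes. The groups did not overlap in 11 of the 55, 6 higher and 5 lower with the SALL4 shRNA, against 22.4% of all genes. Without a filter on dim genes, 9 members besides PRPF38A of 57 reached an unadjusted p under 0.05, against 15.6% of the 18404 genes, and no adjusted p among them was below 0.143. The 55 log2 differences ran from -0.85 to 0.68 with a median of -0.05. With PRPF38A, 24 of the 56 were above 0 and 32 below, and 89.3% lay within 0.5 of 0, compared with 85.4% of all 13711 genes, whose median was 0.02. The sign of the members' median of -0.04 depended on the scaling: with each array centred on its median it was 0.005, with 29 above 0 and 27 below, while the median of all genes moved to 0.06. Less RNA per cell and fewer cells of a kind cannot be told apart in RNA of whole cultures.

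**Figure D2:**
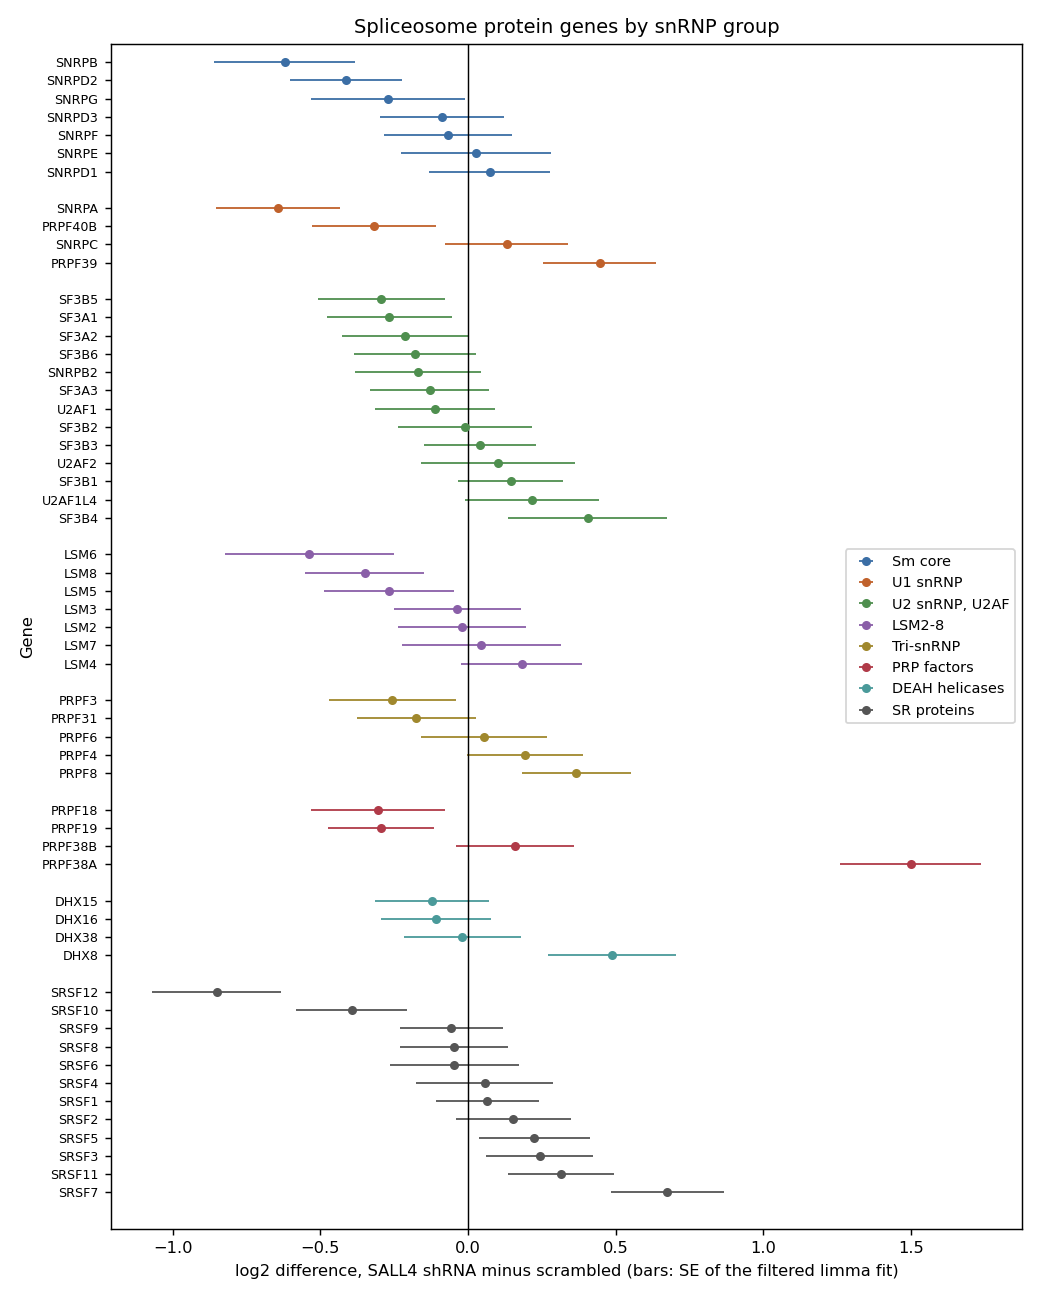
Log2 difference, SALL4 shRNA minus scrambled (x axis), of the 56 spliceosome genes that passed the filter on dim genes, grouped by snRNP or family and ordered within the group; points are means over 3 arrays a group and bars the SE of the limma fit. PRPF38A at 1.50 lies apart from the others, which run from -0.85 (SRSF12) to 0.68 (SRSF7).

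Among the PRP factors that act with or after the B complex, the 3 genes besides PRPF38A did not pass. PRPF19, the ubiquitin ligase that scaffolds the Prp19 complex, read 374, 370 and 395 in the scrambled arrays and 284, 344 and 303 with the SALL4 shRNA, lower without overlap (log2 difference -0.29 ± 0.18, adjusted p = 0.440). PRPF18, which acts in the second catalytic step, read 237, 274 and 228 against 274, 155 and 186, overlapping groups with a log2 difference of -0.30 ± 0.23 (adjusted p = 0.539), which was -0.12 without SALL4 shRNA replicate 2 and -0.53 without replicate 1.

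The 5 tri-snRNP genes of the set did not share a direction: 3 were above 0 and 2 below, with a median of 0.05. PRPF8, the large U5 protein at the catalytic centre, had intensities of 1630, 1244 and 1394 in the scrambled arrays and 1815, 1814 and 1845 with the SALL4 shRNA. Its groups did not overlap and the SALL4 shRNA arrays were nearly equal (1824 ± 17.8 against 1423 ± 194, SD, n = 3), yet the difference of 0.37 ± 0.18 did not pass (adjusted p = 0.338). PRPF3, a U4/U6 protein, had the lowest difference, -0.26 ± 0.22 (adjusted p = 0.589). PRPF4, its U4/U6 partner, was at 0.19 ± 0.20, PRPF6, which bridges U5 and U4/U6, at 0.05 ± 0.21, and PRPF31, another U4/U6 protein, at -0.17 ± 0.20. Scrambled replicate 2 was the lowest scrambled array for all 5 of these genes, compared with 30.9% of all genes.

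Genes of the U1 snRNP split. SNRPA (the U1 A protein), which binds a stem loop of U1 RNA, read 411, 257 and 299 in the scrambled arrays and 197, 192 and 220 with the SALL4 shRNA, lower without overlap (log2 difference -0.64 ± 0.21, adjusted p = 0.139). PRPF39, a U1-associated factor of alternative splicing, read 230, 235 and 249 against 375, 271 and 335, higher without overlap (0.45 ± 0.19, adjusted p = 0.262). The 95% intervals of both differences exclude 0 (-1.10 to -0.19 for SNRPA, 0.03 to 0.86 for PRPF39), but neither passed over all genes. SNRPC (the U1 C protein), which helps U1 recognise the 5′ splice site, was at 0.13 ± 0.21, and PRPF40B, the counterpart of a yeast U1 protein, at -0.32 ± 0.21.

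Of 14 U2 snRNP and U2AF genes, 13 passed the filter; 5 were above 0 and 8 below (6 and 7 with arrays centred on their medians), and the groups did not overlap in 0 of 13, against 22.4% of all genes. SF3B1, the protein that grips the branch point region, read 1501, 1505 and 1553 in the scrambled arrays and 1520, 1777 and 1756 with the SALL4 shRNA (0.15 ± 0.18, 95% interval -0.24 to 0.53). The highest difference was that of SF3B4, another subunit of SF3B, with 135, 188 and 103 against 262, 157 and 148 (0.41 ± 0.27, adjusted p = 0.482), and it was 0.15 without SALL4 shRNA replicate 1 and 0.20 without scrambled replicate 3. The lowest was that of the small subunit SF3B5 with 329, 290 and 199 against 224, 206 and 224 (-0.29 ± 0.21, adjusted p = 0.528). SF3B6, which contacts the branch site, read 1739, 1761 and 1857 against 1214, 1689 and 1910. Its difference of -0.18 ± 0.21 rested on SALL4 shRNA replicate 1, without which it was 0.0091. U2AF1 and U2AF2, which read the 3′ splice site and the pyrimidine tract before it, were at -0.11 ± 0.20 and 0.10 ± 0.26. SNRPA1 (the U2 A′ protein) was dim, at 64.3, 41.9 and 10.9 in the scrambled arrays and 16.7, 10 and 26.5 with the SALL4 shRNA, and was left out of the test. The other gene left out, the pseudogene SNRPD2P2, did not exceed 17.4 on any array.

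The Sm core, the ring of 7 proteins shared by U1, U2, U4 and U5, had 2 genes above 0 and 5 below, with a median of -0.09. SNRPB (SmB) read 281, 370 and 253 in the scrambled arrays and 171, 267 and 158 with the SALL4 shRNA, overlapping groups with a difference of -0.62 ± 0.24 (adjusted p = 0.212). SNRPD2 (SmD2) read 1007, 1215 and 1028 against 833, 916 and 698, lower without overlap (-0.41 ± 0.19, adjusted p = 0.298). SNRPD1 (SmD1), at 546, 510 and 367 against 470, 537 and 472, had the highest value of the ring, 0.07 ± 0.20, which was -0.10 without scrambled replicate 3.

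The LSM2 to LSM8 ring, which binds the end of U6 RNA, also had 2 genes above 0 and 5 below, but 4 above and 3 below with arrays centred on their medians. LSM6 had the lowest difference, -0.54 ± 0.29 (adjusted p = 0.368), from 111, 114 and 69.9 in the scrambled arrays and 88.3, 42.6 and 76.7 with the SALL4 shRNA; without SALL4 shRNA replicate 2 it was -0.22. LSM8, the subunit that sets this nuclear ring apart from the cytoplasmic one, was at -0.35 ± 0.20 (adjusted p = 0.414). LSM4 had the highest, 0.18 ± 0.21 (adjusted p = 0.710). LSM3 read 1142, 812 and 753 against 940, 943 and 730, a difference of -0.04 ± 0.21 that was 0.0097 with centred arrays.

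The Sm and LSM genes were low together on 1 scrambled array. Scrambled replicate 3 was the lowest scrambled array for 11 of these 14 genes (78.6%), compared with 36.8% of all genes, and for 9 of the 13 U2 genes. The median deviation of the 14 genes from their own group mean was -0.32 in scrambled replicate 3 and 0.18 and 0.17 in the other scrambled arrays, on the log2 scale. With the SALL4 shRNA it was 0.02, -0.09 and 0.06. Scrambled replicate 3 and SALL4 shRNA replicate 2 are the arrays that stood apart on the second principal component, and their part in the values of the Sm ring can be read directly. The Sm median of -0.09 was -0.24 without scrambled replicate 3 (0 of 7 genes above 0), 0.0046 without SALL4 shRNA replicate 2 (4 of 7 above 0) and -0.16 without both (1 of 7 above 0). The median of the 14 Sm and LSM genes was -0.08, and -0.24 without scrambled replicate 3. The direction of the Sm ring therefore changed with the array left out.

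**Figure D3:**
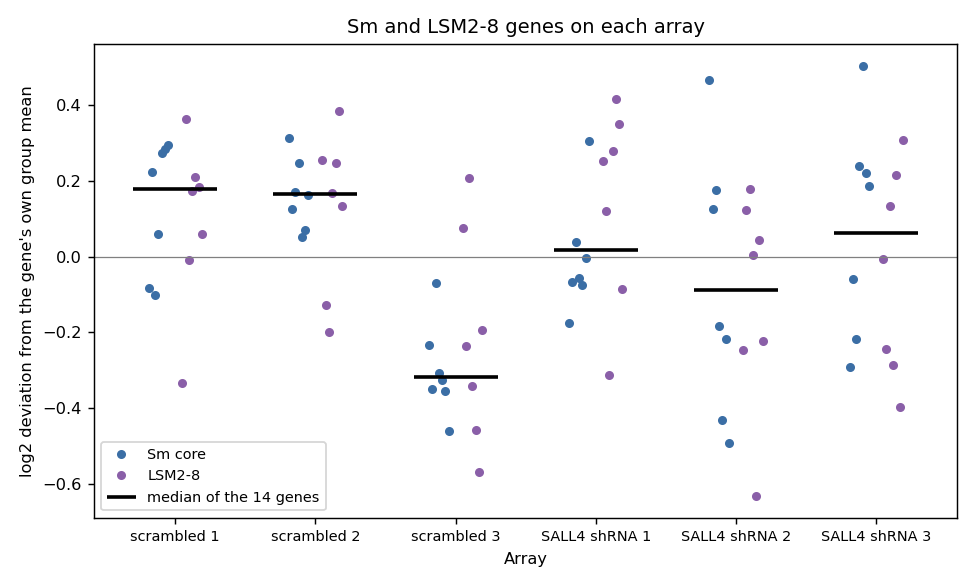
Deviation of log2 intensity from the gene's own group mean (y axis) for the 7 Sm and 7 LSM genes on each of the 6 arrays (x axis); points are genes and lines are medians of the 14. Scrambled replicate 3 has a median of -0.32, below the other 5 arrays, which lie between -0.09 and 0.18.

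The DEAH helicases were near 0 apart from DHX8, which releases the spliced mRNA. DHX8 read 214, 207 and 166 in the scrambled arrays and 277, 342 and 214 with the SALL4 shRNA, a difference of 0.49 ± 0.22 (adjusted p = 0.280) that was 0.21 without scrambled replicate 3 and SALL4 shRNA replicate 2 together. The groups did not overlap, but only just: the highest scrambled value was 213.6 and the lowest with the SALL4 shRNA 213.88. DHX15, which takes the spliceosome apart, read 2143, 1700 and 1686 against 1755, 1848 and 1470 (-0.12 ± 0.19, adjusted p = 0.803). DHX38, of the second catalytic step, was at -0.02 ± 0.20. DHX16, of the first, was at -0.11 ± 0.19, with a second probe set of the other sign.

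SR proteins held both ends of the range apart from PRPF38A, with 7 of 12 above 0 (8 with centred arrays), a median of 0.06 and groups that did not overlap in 5 of 12, against 22.4% of all genes. SRSF12, related to SRSF10, read 243, 275 and 247 in the scrambled arrays and 178, 105 and 151 with the SALL4 shRNA (255 ± 17.4 against 144.5 ± 37.1, SD, n = 3). The groups were apart, with a log2 difference of -0.85 ± 0.22 and an adjusted p of 0.0714; it passed in the limma fit with trend and robust settings (adjusted p = 0.0432) and with an offset of 16 (adjusted p = 0.0435). SRSF7, a zinc knuckle SR protein that also acts in 3′ end formation and mRNA export, read 1641, 1597 and 1336 against 2074, 2662 and 2582 (1525 ± 165 against 2439 ± 319, SD, n = 3). It was higher without overlap, at 0.68 ± 0.19 and an adjusted p of 0.0955, and passed with trend and robust settings (adjusted p = 0.0175). Of all 13711 genes, 500 passed with trend and robust settings and 445 with the offset, against 220 in the fit used here. SRSF11 read 2013, 1788 and 1993 against 2416, 2580 and 2216, higher without overlap (0.32 ± 0.18, adjusted p = 0.404). SRSF3 was likewise higher on every SALL4 shRNA array (643 to 723 against 527 to 637, 0.24 ± 0.18, adjusted p = 0.538). SRSF1, the founding member, read 1184, 1212 and 1298 against 1339, 1311 and 1216 (0.07 ± 0.18, 95% interval -0.32 to 0.45). SRSF9 was steady in the scrambled arrays, at 694, 692 and 691, and read 652, 635 and 712 with the SALL4 shRNA (-0.06 ± 0.17).

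Some members could not be tied to 1 probe set, a group of array probes summarised into 1 value. DHX16, SNRPE, SNRPG and SRSF10 each had more than 1, and the one with the highest mean was used. For DHX16 the 2 differed in sign, -0.11 and 0.32, and the mean of both gave 0.11. Identifiers on this array run in chromosome order: where at least 80% of the 10 nearest named probe sets on each side belong to 1 chromosome, it is that of the gene itself for 99.2% of 18649 probe sets and for 54 of 56 members. The exceptions were SNRPE and SNRPG. The SNRPE probe set lies among those of chromosome 9, while the gene is on chromosome 1, and that of SNRPG among those of chromosome 19, while the gene is on chromosome 2. RefSeq lists 11 pseudogenes named after SNRPE and 20 after SNRPG; whether these probe sets read such copies was not tested. Members that are not among the exceptions have such copies too, with 20 for SNRPC and 5 each for LSM3 and SRSF3, and their probe sets were not tested for this either. PRPF38A has 1 probe set, among those of chromosome 1, its own, and RefSeq lists 2 pseudogenes named after it. SNRPE was at 0.03 ± 0.25, and its second probe set, among those of chromosome 1, at 0.24. SNRPG was at -0.27 ± 0.26, and its second probe set, among those of chromosome 2, at -0.87 (adjusted p = 0.494 in a fit of all probe sets). The SRSF10 probe set lies at a border in the identifier order, where 50% of its neighbours belong to chromosome 2, while the gene is on chromosome 1. It read 732, 584 and 731 against 566, 474 and 514 (-0.39 ± 0.19, adjusted p = 0.317), and its second probe set, among those of chromosome 1, was at -0.56. With these 3 genes read from the second probe set, the median of the members was again -0.04 and that of the Sm ring -0.09.

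Outside the members, 129 further splicing genes were measured in 8 lists, and 1 of them passed, against 1.60% of all genes: SNRNP40 fell. SNRNP40, the 40K WD-repeat protein of the U5 snRNP, read 330, 325 and 192 in the scrambled arrays and 98.6, 101 and 86.0 with the SALL4 shRNA (282 ± 78.4 against 95.2 ± 8.05, SD, n = 3). The groups were far apart, with a log2 difference of -1.53 ± 0.23 (adjusted p = 0.0125). It missed the threshold without scrambled replicate 1 (adjusted p = 0.0511), without scrambled replicate 2 (0.0548), in the fit of all probe sets (0.0695) and with no filter (0.113). U5 proteins that lie beside it in the particle did not pass. PRPF8 was at 0.37, SNRNP200, the helicase that unwinds U4/U6, at -0.12 ± 0.18, and EFTUD2, the U5 GTPase, at -0.11 ± 0.18. TXNL4A, also a U5 protein, was at -0.43 ± 0.22 (adjusted p = 0.356).

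SNRNP40 belongs to the list of B complex and tri-snRNP partners, which holds proteins that meet PRPF38A, and no other gene of that list passed. MFAP1, the direct partner of PRPF38A, read 791, 721 and 956 in the scrambled arrays and 783, 922 and 949 with the SALL4 shRNA. Its groups overlapped, at 0.11 ± 0.19 (95% interval -0.31 to 0.53). ZMAT2 read 117, 124 and 175 against 151, 199 and 319, with overlap (0.64 ± 0.27, adjusted p = 0.262). IK was at 0.49 ± 0.25 (adjusted p = 0.348). SMU1, which works with IK, read 277, 346 and 357 against 535, 363 and 367, higher without overlap (0.35 ± 0.21, adjusted p = 0.430). The highest difference of this list, 0.74 ± 0.26, was that of TXNL4B, a thioredoxin-like protein related to the U5 protein TXNL4A, with 249, 376 and 517 against 747, 502 and 598 (adjusted p = 0.182), which was 0.46 without scrambled replicate 1. Of the 17 measured genes of the list, 9 were above 0 and 8 below.

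In the other lists 0 genes passed the limma fit. With trend and robust settings U2SURP (adjusted p = 0.0191), TNPO3 (0.0442) and RNPS1 (0.0353) did, and with an offset of 16 U2SURP (0.0396) and TNPO3 (0.0454). More of all 13711 genes passed there too, 500 with trend and robust settings and 445 with the offset, against 220. Among 19 further U1 and U2 factors, 12 were above 0; U2SURP, a U2-associated SR-related protein, read 1255, 1153 and 1199 in the scrambled arrays and 860, 656 and 694 with the SALL4 shRNA, lower without overlap (-0.72 ± 0.19, adjusted p = 0.0761). At the other end of this list RBM25, a U1-associated factor, was at 0.44 ± 0.19 (adjusted p = 0.260). Among 24 factors of the Prp19 complex and the catalytic steps, 6 were above 0 and 18 below (9 and 15 with centred arrays), from PPIL1, a cyclophilin, at -0.59 ± 0.23 (adjusted p = 0.224) to DDX41, a DEAD-box helicase, at 0.62 ± 0.21 (adjusted p = 0.146). The 7 proteins particular to the minor spliceosome, which removes rare introns, had 4 above 0, from SNRNP35 at -0.71 ± 0.23 (adjusted p = 0.141) to SNRNP48 at 0.42 ± 0.22 (adjusted p = 0.365), which was 0.26 without SALL4 shRNA replicate 1.

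Among the 22 measured hnRNP proteins, 14 were above 0 (11 after quantile normalization, where the median changed sign to -0.0051). PTBP1 and PTBP2, paralogs that repress exons by binding pyrimidine tracts, stood at the ends of that list, while their paralog PTBP3 was at 0.02 ± 0.22. PTBP1 read 1778, 1713 and 1654 in the scrambled arrays and 1852, 1541 and 866 with the SALL4 shRNA, a difference of -0.34 ± 0.26 (adjusted p = 0.541) that was -0.021 without SALL4 shRNA replicate 3, the low array. PTBP2, the paralog best known from neurons, read 209, 164 and 148 against 355, 235 and 290, higher without overlap (0.75 ± 0.22, adjusted p = 0.0988). Of 18 SR-related proteins and SR kinases, 5 were above 0 (8 with centred arrays). TNPO3, the importin that carries SR proteins into the nucleus, read 335, 342 and 411 against 239, 227 and 202, lower without overlap (-0.70 ± 0.18, adjusted p = 0.0782). CLK1, a kinase of SR proteins, was at 0.60 ± 0.24 (adjusted p = 0.240), and at 0.39 without scrambled replicate 1.

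The machinery that assembles Sm rings on small nuclear RNAs had 7 of 15 genes at an unadjusted p under 0.05, 3 higher and 4 lower, and 8 of 15 with groups that did not overlap, against 16.9% and 22.4% of all genes. None passed the adjusted test, and the list was not tested as a set. COIL, the scaffold of Cajal bodies, read 795, 616 and 682 in the scrambled arrays and 522, 531 and 281 with the SALL4 shRNA (-0.70 ± 0.25, adjusted p = 0.185), a difference of -0.40 without SALL4 shRNA replicate 3. GEMIN5, which recognises the small nuclear RNA, read 340, 391 and 286 against 222, 223 and 219 (-0.60 ± 0.19, adjusted p = 0.124). GEMIN2, the SMN partner that holds the Sm proteins, was higher on every SALL4 shRNA array, with 67.1, 61.2 and 69.0 against 96.9, 91.6 and 111 (0.60 ± 0.18, adjusted p = 0.116). In the exon junction complex, left on mRNA by splicing, 3 of 7 genes were above 0. Its ends were MAGOHB, a core subunit, at -0.69 ± 0.30 (adjusted p = 0.268; -1.05 without SALL4 shRNA replicate 1) and RNPS1, a peripheral splicing activator, at 0.78 ± 0.23 (adjusted p = 0.104). RNPS1 read 908, 712 and 830 against 1106, 1933 and 1274, higher without overlap.

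**Figure D4:**
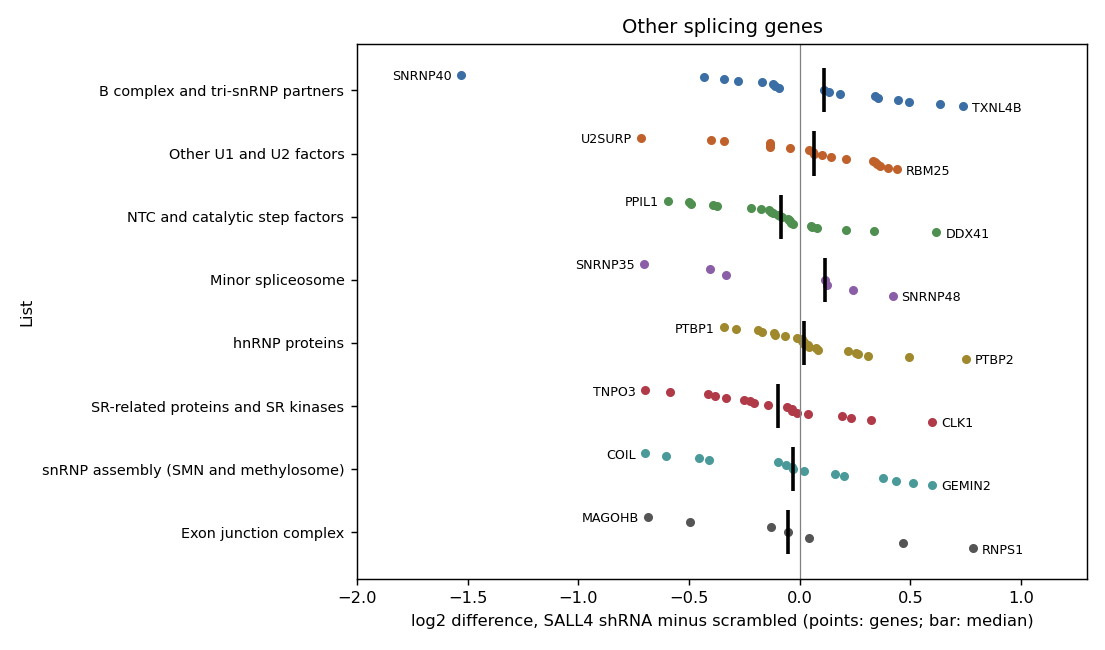
Log2 difference, SALL4 shRNA minus scrambled (x axis), of 129 further splicing genes in 8 lists (y axis); points are genes, black bars are list medians and the lowest and highest gene of each list is named. SNRNP40 at -1.53 is apart from the other genes of its list, and list medians lie between -0.10 and 0.12.

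Promoter sequence was not used in the choice of the members. Of 5 short words searched there, CCGGAA and GGGCGG were each found in more than 50% of the members with a window. No test was made of these shares. RefSeq gave 51 of the 58 members a window from 250 bases before to 50 after the start. CCGGAA occurred on either strand in 29 of the 51 (56.9%), in 31.8% of the 10853 tested genes with a window and in 20.1% of all 27305 genes of the table. Members had 61 windows for 51 genes and the tested genes 15613 for 10853, so members did not have more windows a gene. GGGCGG was found in 58.8% of members and 75.1% of tested genes (48.3% of all genes). CCAAT was in 35.3% and 41.9% (39.7% of all), TATAAA in 7.84% and 8.98% (14% of all), and the E-box CACGTG in 1.96% and 12.3% (8.77% of all). None of these 5 words contains another. Among the 50 members that were also tested, CCGGAA was in 5 of 6 Sm genes with a window, 8 of 12 U2 genes, 4 of 4 helicases, 3 of 6 LSM genes, 3 of 4 PRP factors, 2 of 4 tri-snRNP genes, 1 of 3 U1 genes and 2 of 11 SR protein genes; the other gene with the word is SNRPA1. The members with and without the word overlapped in their response. The 28 tested members with CCGGAA had a median log2 difference of -0.10 (10 above 0, 18 below) and the 22 without it a median of -0.03 (10 above 0, 12 below).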

How the data were processed

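Total RNA of 6 cultures was hybridised to 6 Affymetrix arrays. The deposited values are intensities on a linear scale with a floor of 10; per the submitters' processing notes RMA was used, with version and later steps not given in the sources used here. Array medians lay between 47.85 and 51.69, and 15.5% to 16.9% of an array's values were at the floor, so a gene there has only an upper bound. Log2 of the intensity was taken here. Of 32319 probe sets, 19158 have 1 gene symbol in the platform annotation, 1388 several and 11773 are not listed. For 19128 of the 19158 the symbol was read from RefSeq through the Entrez identifier, whether or not it differed from the annotation. The probe set with the highest mean was used for each of 18404 genes.

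The difference between the groups, SALL4 shRNA minus scrambled, was estimated in R 4.3.3 by limma 3.58.1 (lmFit, eBayes, two-sided, Benjamini-Hochberg), for genes whose mean log2 intensity reached 5 in at least 1 group. Its SE, p-values and intervals use variances moderated over these genes (8.011 prior degrees of freedom), not the spread of each gene alone. Tested on simulated data with 13711 genes, the fit called 49% of genes with a true log2 change of 1, 97% of those with a change of 2, and 4 genes falsely. The changed genes were drawn from the brighter ones with normally distributed noise, so these shares do not describe genes near the filter. The noise was independent between genes, so the simulation cannot show how many false calls arise from shifts that genes share on an array. The exact permutation p of 3 against 3 arrays cannot go below 0.1. Nothing in the labels pairs cultures by replicate number, so the fit has no block. Deviations of same-numbered arrays had correlations of 0.0029, -0.083 and -0.039, and those of differently numbered arrays ran from -0.066 to 0.094. These values cannot show whether cultures were paired. The members and lists were chosen with earlier results of these data known. Genes named are SALL4, PRPF38A and its paralog, genes that passed, the highest, lowest and brightest of each group, the ends of each list, neighbours of PRPF38A and members whose probe sets differ in sign; the other genes printed were chosen after their values were seen. Promoter sequences are from RefSeq (GRCh38.p14). Filters, scaling, offset, probe set choice, spread model, the replicate block and arrays left out were varied.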

Additional observations from a re-analysis of the deposited data

How the results depend on the processing

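The count of all genes that passed, 220, depended on the processing. The count of spliceosome genes holds PRPF38A, on whose difference the set was picked, so its place there is no test; the other members gave 2 calls (SRSF12 and SRSF7) with trend and robust settings, 1 (SRSF12) with an offset of 16 and 0 under the rest. With PRPF38A the spliceosome count was 1 beside the 220. With no filter both were 0 (2864 of 18404 genes at an unadjusted p under 0.05), and with all probe sets as units they were 0 and 10. With trend and robust settings they were 3 and 500, with an offset of 16 they were 2 and 445, and a stricter filter at a log2 intensity of 6 gave 1 and 363. With the replicate block they were 1 and 41; nothing ties the numbers to shared cultures. Leaving out 1 array gave 0 to 1 and 39 to 103, with 0 members without scrambled replicate 1 or 2; without scrambled replicate 3 and SALL4 shRNA replicate 2 they were 0 and 15. A filter on the mean over all arrays (220), quantile normalization (242), array median centring (240) and the mean of probe sets (224) kept the count of all genes within 1.5 times. SALL4 had an adjusted p of 0.0946 with no filter, 0.0535 with all probe sets and 0.0724 without those 2 arrays.

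The members' median of -0.04 ranged from -0.12 to 0.031 with 1 array left out and was -0.12 without both; reading SNRPE, SNRPG and SRSF10 from the other probe set, chosen after seeing the data, left it at -0.04. PRPF38A kept its direction under every alternative, between 1.22 and 1.69. Of 698 alternatives of 41 single genes, 670 kept direction and call, 8 gained a call (RNPS1, SRSF12, SRSF7, TNPO3 and U2SURP, with trend and robust settings or the offset), 7 lost one (SALL4 and SNRNP40) and 13 reversed sign: DHX16 at 0.11 (mean of probe sets) and 0.32 (other probe set); LSM3 at 0.0097 (centring) and from -0.22 to 0.15 with arrays left out; SF3B6 from -0.32 to 0.0091; SNRPD1 from -0.10 to 0.18, and -0.16 without both arrays; TUT4 at 0.029 (centring) and from -0.13 to 0.066. The cause was not tested. Genes near the floor are limited to bounds.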

Other observations

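The head-to-head arrangement of PRPF38A and ORC1 was also found at other spliceosome genes. By RefSeq starts at most 1000 bases apart on opposite strands, 14 of the 50 tested members with a window (28%) had such a partner that was also tested, compared with 13.7% of the 10853 tested genes with a window; no test was made. Leaving out PRPF38A, on which the set was selected, the log2 differences of member and partner had the same sign in 4 of 13 pairs, compared with 371 of all 744 such pairs (49.9%). XPC, a DNA damage sensor that starts 216 bases from LSM3, was at -0.90 ± 0.23 (adjusted p = 0.0751), while LSM3 was at -0.04. TXNL4B, whose product is itself a splicing factor, starts 227 bases from the helicase gene DHX38 and was at 0.74 ± 0.26 (adjusted p = 0.182), while DHX38 was at -0.02. DYNLL1, a dynein light chain, starts 94 bases from SRSF9 and was at 0.56 ± 0.18 (adjusted p = 0.140), while SRSF9 was at -0.06. SNRPA and its partner ACTMAP, 726 bases apart, were both below 0, at -0.64 and -0.41, and SRSF11 and LRRC40, 117 bases apart, were both above it, at 0.32 and 0.36. These pairs were looked at after the values were seen, and none of these partners passed the adjusted test.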
